A study of Mus musculus with 12 samples.

Results

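The genes described here are 10 genes of the fibroblast extracellular matrix: the fibrillar collagen genes Col1a1, Col1a2, Col3a1, Col5a1 and Col5a2, and Postn, Mgp, Lum, Dcn and Timp3. They were chosen by name, as every probe set whose platform gene symbol is one of the 10, which gave 21 of 45037 probe sets and 10 of 18193 named genes. They were measured in mouse embryonic stem (ES) cells on 12 Affymetrix whole-genome mouse arrays, with 3 biological replicates of each of 4 genotypes. The wild type cells carried neither mutation, the Ring1B deficient line was made by gene targeting of Ring1B, the Eed deficient line by gene targeting of Eed, and in the double deficient line Ring1B was targeted in cells that already lacked Eed. The labels describe no further line of any genotype, so every comparison also holds differences between lines. P-values rest on the spread between replicates, estimated for each gene from all 12 arrays together. An array outside a comparison therefore also affects its p-value. Ring1B, the product of Rnf2, puts ubiquitin on histone H2A within Polycomb complex PRC1, and Eed is needed for histone methylation by PRC2; both complexes are known to hold developmental genes low.

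Signals are linear MAS5 values. Array medians ran from 19.07 to 28.01, and the 40th percentile of an array, used as the limit for a probe set to be kept, ran from 12.1 to 19.1. The targeted gene Eed gave 1248 to 1547 on the wild type arrays and 25.1 to 51.1 on the Eed deficient arrays, with 51.1 in Eed deficient replicate 3, and 47.5 to 87.1 on the double deficient arrays. Rnf2 gave 777 to 994 in wild type, 398 to 529 in Ring1B deficient and 362 to 399 in double deficient cells, so its signal was lower but not at background. On Eed deficient replicates 1, 2 and 3 Rnf2 gave 679, 973 and 685. The ES cell marker Pou5f1 lay between 1837 and 1949 on the Eed deficient arrays, with 1877 in replicate 3. Eed deficient replicate 3 thus matched its label by Eed and Rnf2 together and had Pou5f1 like the other Eed deficient arrays. The matrix genes stood apart on it, and the numbers of genes called in Eed deficient cells are given with and without it.

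Interstitial collagens are trimers that assemble into fibrils outside the cell. Collagen I is built from the Col1a1 and Col1a2 chains, collagen III from Col3a1, and collagen V, which sits inside collagen I fibrils and limits their width, from Col5a1 and Col5a2. Lumican and decorin are small leucine-rich proteoglycans that bind the fibrils, periostin links fibrils to other matrix proteins, matrix Gla protein keeps matrix from calcifying, and TIMP3 is a matrix-bound inhibitor of metalloproteinases. Fibroblasts make all of these in quantity, and undifferentiated ES cells, which grow on fibroblast feeder layers in many laboratories, are not known for them. How the cells were cultured is not stated in the labels beyond a reference to a methods text.

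RefSeq start site sequences of assembly GRCm38.p6 were at hand for 5 of the 10 genes, namely Col1a2, Col3a1, Col5a1, Postn and Timp3. They are shown because Polycomb complexes are known to favour starts rich in CpG dinucleotides, and because these genes fell on both sides of that feature. Each sequence below is the 250 bases before the start, 5′ to 3′ on the plus strand, with every CG in capitals.
Timp3, chr10:86300162-86300411: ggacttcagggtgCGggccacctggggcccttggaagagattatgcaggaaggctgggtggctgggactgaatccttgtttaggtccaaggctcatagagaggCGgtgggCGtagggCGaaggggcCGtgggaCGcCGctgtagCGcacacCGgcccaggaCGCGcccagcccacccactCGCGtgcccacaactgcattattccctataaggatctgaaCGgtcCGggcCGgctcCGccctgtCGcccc
Col5a1, chr2:27886175-27886424: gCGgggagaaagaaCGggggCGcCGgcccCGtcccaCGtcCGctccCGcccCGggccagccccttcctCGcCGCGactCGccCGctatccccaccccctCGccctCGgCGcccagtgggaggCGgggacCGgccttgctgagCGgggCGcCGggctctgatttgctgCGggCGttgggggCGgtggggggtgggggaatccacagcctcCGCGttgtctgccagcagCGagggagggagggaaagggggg
Col1a2, chr6:4505368-4505617: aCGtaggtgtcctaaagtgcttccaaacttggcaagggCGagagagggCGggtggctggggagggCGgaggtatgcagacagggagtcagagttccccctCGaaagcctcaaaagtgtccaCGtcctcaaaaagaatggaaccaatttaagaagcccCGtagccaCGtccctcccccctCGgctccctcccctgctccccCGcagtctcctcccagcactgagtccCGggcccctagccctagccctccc
Postn, chr3:54360857-54361106: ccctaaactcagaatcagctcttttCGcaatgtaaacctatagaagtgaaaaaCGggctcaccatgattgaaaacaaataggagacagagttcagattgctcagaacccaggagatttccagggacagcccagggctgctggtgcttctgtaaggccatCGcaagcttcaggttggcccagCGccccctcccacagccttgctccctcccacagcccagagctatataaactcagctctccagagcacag
Col3a1, chr1:45311288-45311537: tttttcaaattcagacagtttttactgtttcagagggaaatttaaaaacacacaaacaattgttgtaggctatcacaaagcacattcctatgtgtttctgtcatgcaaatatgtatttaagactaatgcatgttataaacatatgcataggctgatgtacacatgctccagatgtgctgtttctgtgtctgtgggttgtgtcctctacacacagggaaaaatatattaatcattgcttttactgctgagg

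The Timp3 window held 18 CG, the Col5a1 window 28 and the Col1a2 window 11, against a median of 6 over 32851 such windows in the RefSeq table. The Postn window held 4 CG, a second Postn start held 3, and the Col3a1 window held 0. GC content was 65.6% for Timp3, 76.4% for Col5a1, 62.0% for Col1a2, 52.0% for the Postn window shown and 35.2% for Col3a1. The letters TATAAA, searched on both strands, stood in the Col3a1 window and the Postn window shown and in 12.4% of all windows, and CCAAT stood in the Col1a2 window and in 33.8% of all windows. These matches describe the letters only.

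The collagen I genes were low in wild type and Ring1B deficient cells and high in double deficient cells. Col1a2 read 173, 151 and 176 on wild type replicates 1, 2 and 3, then 148, 161 and 85.8 on the Ring1B deficient arrays, 238, 292 and 650 on the Eed deficient arrays, and 676, 884 and 697 on the double deficient arrays. All Eed deficient arrays lay above all wild type arrays and below all double deficient arrays, with replicate 3 close to the double deficient ones. Col1a2 rose by 1.08 in log2 in Eed deficient cells (SE 0.31, adjusted p = 0.0317) and by 2.13 in double deficient cells (SE 0.31, adjusted p = 0.000206). In bulk RNA, more cells of a type and more RNA of a gene per cell cannot be told apart. Without Eed deficient replicate 3 the first of these changes was 0.65 and was not called (adjusted p = 0.115). Its call was also not made without wild type replicate 1, 2 or 3 (adjusted p = 0.0666, 0.0778 and 0.0701), nor with the mean of its probe sets in place of the brightest (0.0509). Log2 changes are on the scale of log2 of the signal plus 5, which understates changes of dim genes.

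Col1a1, the gene of the other collagen I chain, read 41.8, 50.8 and 32.2 in wild type, 39.8, 32.2 and 9.23 in Ring1B deficient, 56.6, 43.1 and 156 in Eed deficient, and 144, 157 and 127 in double deficient cells. Eed deficient replicates 1 and 2 overlapped the wild type arrays, whereas replicate 3 lay within the double deficient range. A second Col1a1 probe set read 30.6 and 25.25 on replicates 1 and 2, below its wild type range of 37.5 to 42.9, and 163 on replicate 3. Col1a1 rose by 1.68 in log2 in double deficient cells against wild type (SE 0.43, adjusted p = 0.0100) and was not called in Eed deficient cells (0.76, adjusted p = 0.264, and 0.24 without replicate 3), although array weights gave 1.36 and a call (adjusted p = 0.0311). Levels therefore ran from Ring1B deficient over wild type and Eed deficient to double deficient cells, and the arrays of each neighbouring pair in that order overlapped.

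Col3a1, the collagen III gene, read 56.8, 58.1 and 63.9 in wild type and 46.3, 38.7 and 22.5 in Ring1B deficient cells, all lower without overlap. On the Eed deficient arrays it read 61.4, 42.6 and 260.5, and on the double deficient arrays 188, 260.5 and 172. Eed deficient replicate 3 was level with the highest double deficient array, while replicate 1 lay within and replicate 2 below the wild type range. Col3a1 rose by 1.69 in log2 in double deficient cells (SE 0.46, adjusted p = 0.014), a call not made without double deficient replicate 2 (adjusted p = 0.0543). The change in Ring1B deficient cells was not called (-0.71, adjusted p = 0.436).

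The collagen V genes were also highest in double deficient cells. Col5a1 read 94.2, 107 and 109 in wild type, 116, 121 and 79.8 in Ring1B deficient, 128, 192 and 352 in Eed deficient, and 269, 359 and 304 in double deficient cells. Every Eed deficient array lay above the wild type arrays, and the log2 changes were 0.96 in Eed deficient (SE 0.28, adjusted p = 0.0341) and 1.54 in double deficient cells (adjusted p = 0.00115). The first was 0.58 without Eed deficient replicate 3 and was not called (adjusted p = 0.128), nor was it called without wild type replicate 1, 2 or 3 (0.0921, 0.0609 and 0.0734), Eed deficient replicate 2 (0.0589) or double deficient replicate 3 (0.050). Col5a2 read 174, 93.3 and 111 in wild type, 106, 91.2 and 61.1 in Ring1B deficient, 189, 144 and 558 in Eed deficient, and 519, 599 and 506 in double deficient cells. Its Eed deficient arrays overlapped the wild type arrays, and its change there, 1.00, was not called (adjusted p = 0.0998), whereas it was called without Eed deficient replicate 2 (1.38, adjusted p = 0.0302) and with array weights (1.57, adjusted p = 0.00715). A second, dim Col5a2 probe set read 11.2, 9.14 and 26.55 on the Eed deficient arrays, all above its wild type range of 5.66 to 7.65. It was above the 40th percentile on only 4 arrays and passed the filter through arrays where it was high, so it does not stand as support. Its values on Eed deficient replicates 1 and 2 lay below those arrays' 40th percentiles of 13.4 and 13.6. In double deficient cells Col5a2 rose by 2.10 (SE 0.39, adjusted p = 0.00119).

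**Figure D1:**
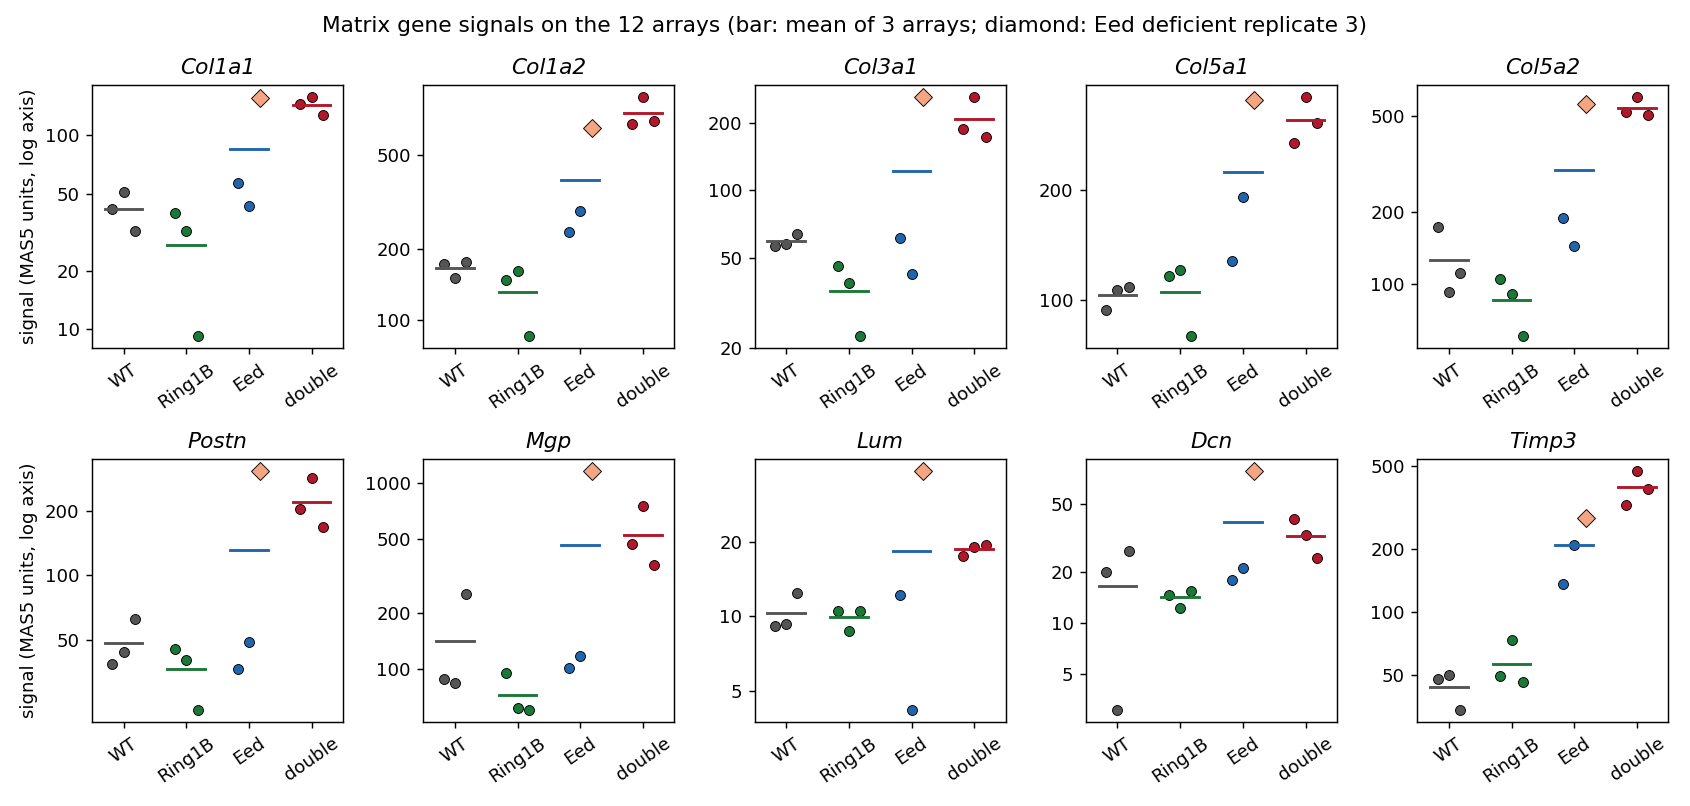
Signal of the tested probe set of each of the 10 genes on every array (vertical axis, MAS5 units, log scale) by genotype, with points for arrays, bars for the mean of 3 arrays and a diamond for Eed deficient replicate 3. The diamond lies above the other Eed deficient arrays in every panel, at 1171 against 101 and 117 for Mgp, and reaches or passes the lowest double deficient array in 8 of the 10 panels.

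Postn and Mgp, which encode periostin and matrix Gla protein, had the widest gaps between Eed deficient arrays. Postn read 38.7, 43.6 and 62.6 in wild type, 45.3, 40.4 and 23.5 in Ring1B deficient, 36.5, 48.7 and 309 in Eed deficient, and 204, 287 and 168 in double deficient cells. Eed deficient replicate 1 lay just below and replicate 2 within the wild type range, and replicate 3 above every double deficient array, 6.35-fold over the higher of the other Eed deficient arrays. Postn rose by 2.07 in log2 in double deficient cells (SE 0.55, adjusted p = 0.0124) and was not called in Eed deficient cells (0.76, adjusted p = 0.399, and -0.15 without replicate 3).

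Mgp read 88.4, 84.2 and 254 in wild type, 94.9, 61.2 and 60.15 in Ring1B deficient, 101, 117 and 1171 in Eed deficient, and 472, 751 and 363 in double deficient cells. Wild type replicate 3 was well above the other wild type arrays, and Eed deficient replicate 3 was 10.03-fold over the higher of the other Eed deficient arrays. The double deficient arrays all lay above the wild type arrays, and the log2 change of 1.98 (SE 0.70) was just called (adjusted p = 0.0469). That call was not made in 13 of 23 alternative settings, with adjusted p from 0.0523 to 0.14, among them leaving out wild type replicate 1 or 2, Ring1B deficient replicate 1 or 3, or any double deficient array. Without Eed deficient replicate 3 the change was the same, with SE 0.37 and a limma adjusted p of 0.00176. That array lies outside this comparison but enters its estimate of the spread, and it was set apart with its values known. Against Ring1B deficient cells Mgp rose by 2.76 (adjusted p = 0.0164), a call not made without Ring1B deficient replicate 3 (0.0595) or double deficient replicate 2 (0.06).

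The small proteoglycan genes were dim throughout. Lum read 9.17, 9.27 and 12.4 in wild type, 10.5, 8.70 and 10.5 in Ring1B deficient, 12.2, 4.19 and 38.7 in Eed deficient, and 17.5, 19.0 and 19.4 in double deficient cells. It was above the 40th percentile on only 4 arrays, so it was tested only through the arrays where it was high. Dcn read 19.8, 3.10 and 26.4, then 14.7, 12.2 and 15.5, then 17.8, 20.8 and 78.0, and in double deficient cells 40.7, 32.7 and 24.0. The Dcn values are in the same order of genotypes. For both genes Eed deficient replicate 3 was the brightest of the 12 arrays, and neither gene was called in any comparison (double deficient against wild type 0.63 for Lum, adjusted p = 0.259, and 1.00 for Dcn, adjusted p = 0.148). Dcn was called higher in double deficient cells once Eed deficient replicate 3 and wild type replicate 3 were both left out (1.38, adjusted p = 0.0303), a setting chosen after seeing the data.

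Timp3, the metalloproteinase inhibitor, read 47.6, 50.1 and 33.9 in wild type, 49.5, 73.5 and 46.2 in Ring1B deficient, 136, 211 and 282 in Eed deficient, and 327, 477 and 389 in double deficient cells. As for Col1a2, the Eed deficient arrays lay above all wild type and below all double deficient arrays, and replicate 3 was only 1.34-fold over replicate 2. Timp3 rose by 2.09 in log2 in Eed deficient cells (SE 0.26, adjusted p = 0.000122), by 1.85 without replicate 3 (SE 0.26, adjusted p = 0.00079), and by 3.04 in double deficient cells (SE 0.26, adjusted p = 2.15e-06).

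By their brightest probe sets, the 3 genes whose Eed deficient replicates 1 and 2 both lay above every wild type array were Timp3, Col5a1 and Col1a2. This is 3 of 10, near the 21.7% of all genes. A second Col1a2 probe set read 80.15 on Eed deficient replicate 1, under 84.8 on wild type replicate 3. Another Timp3 probe set read 39.2 on Eed deficient replicate 1, under the highest wild type value of 46.0. Timp3, Col5a1 and Col1a2 are also the genes whose start windows printed above held 11 to 28 CG, while Col3a1 and Postn, with 0 to 4, had replicates 1 and 2 within or below the wild type range. This is a description of 5 genes with no test, made after their values were seen, and no link to CG content is drawn from it. Of the other 5 genes no start sequence was used.

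Set against all 13984 genes tested, the counts of the matrix genes were as follows. In Ring1B deficient cells 0 of 10 matrix genes were called by limma, where 4.68% of all genes were called higher and 2.5% lower, and 0 of the 10 had an unadjusted p under 0.05, where 20.5% of all genes had. Their median log2 change was -0.38 against -0.01 for all genes, with a range from -0.78 to 0.32. In Eed deficient cells 3 of 10 were called higher and 0 lower, where 10.8% of all genes were called higher and 4.56% lower, with a median of 0.95 against 0.03 for all genes. In double deficient cells 8 of 10 were called higher than wild type and 0 lower, where 19.5% of all genes were called higher and 11.4% lower, with a median of 1.84 against 0.10. The same 8 genes, all but Lum and Dcn, were called higher than in Ring1B deficient cells, where 12.7% of all genes were called higher and 5.98% lower, with a median of 2.42 against 0.11. Arrays of the compared genotypes did not overlap for 1 gene in Ring1B deficient cells (Col3a1, lower, against 10.8% of all genes), 3 in Eed deficient cells (higher, 18.6%), 9 in double deficient cells against wild type (27.8%) and 10 when these were set against Ring1B deficient cells (26%). The 9 and the 10 include Lum, which passed the filter only through Eed deficient replicate 3 and the double deficient arrays, so Lum does not stand as support. The whole-table split into 2723 higher and 1589 lower genes in double deficient cells against wild type became 1691 and 3141 when arrays were centred on their medians, where 7 of the 10 matrix genes were still called higher. These comparisons share arrays and are not independent.

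Double deficient and Eed deficient cells were compared to see what loss of Ring1B added in cells without Eed. With all arrays, 0 of 10 matrix genes were called by limma, where 1.07% of all genes were called higher and 0.822% lower, and 5 of 10 were higher at an unadjusted p under 0.05, where 10.5% of all genes were. The median change was 1.00. The smallest adjusted p was 0.0737, for Timp3. With replicate 3 set apart, 7 of 10 were called higher (Col1a2, Col3a1, Col5a1, Col5a2, Postn, Mgp and Timp3), where 1.44% of all genes were, and the median was 1.46. All 10 genes were higher on every double deficient array than on Eed deficient replicates 1 and 2, where 21.5% of all genes were, and 2 of 10, Col1a2 and Timp3, were higher on every double deficient array than on all 3 Eed deficient arrays, where 15.4% of all genes were. Lum is among the 10 and does not stand as support here, since it passed the filter only through arrays where it was high. Since replicate 3 was singled out for its high matrix signals, leaving it out widens this difference by construction. It also narrowed the SE of every matrix gene but Timp3, for Postn from 0.55 to 0.29, so the counts with and without it differ for both reasons.

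The interaction term, the effect of losing Ring1B in cells without Eed minus its effect in cells with Eed, was called for 0 of 10 matrix genes by limma, where 0.708% of all genes were called with a positive and 1.19% with a negative value, and 5 of 10 were positive at an unadjusted p under 0.05, where 8.68% of all genes were. Its median was 1.51. Without replicate 3 it was called for 5 of 10, namely Col1a2 (1.86), Col3a1 (2.60), Col5a2 (2.19), Postn (2.60) and Mgp (2.94), where 0.973% of all genes were. Here too the removal of the array with high matrix signals raises the value by construction. It also narrowed the SE, for Postn from 0.78 to 0.39. In the Eed deficient comparison with wild type, leaving out replicate 3 left Timp3 as the 1 called gene of 10, where 7.27% of all genes were called higher, and the median change fell from 0.95 to 0.32, with Col3a1, Postn, Mgp and Lum at -0.20, -0.15, -0.18 and -0.27.

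**Figure D2:**
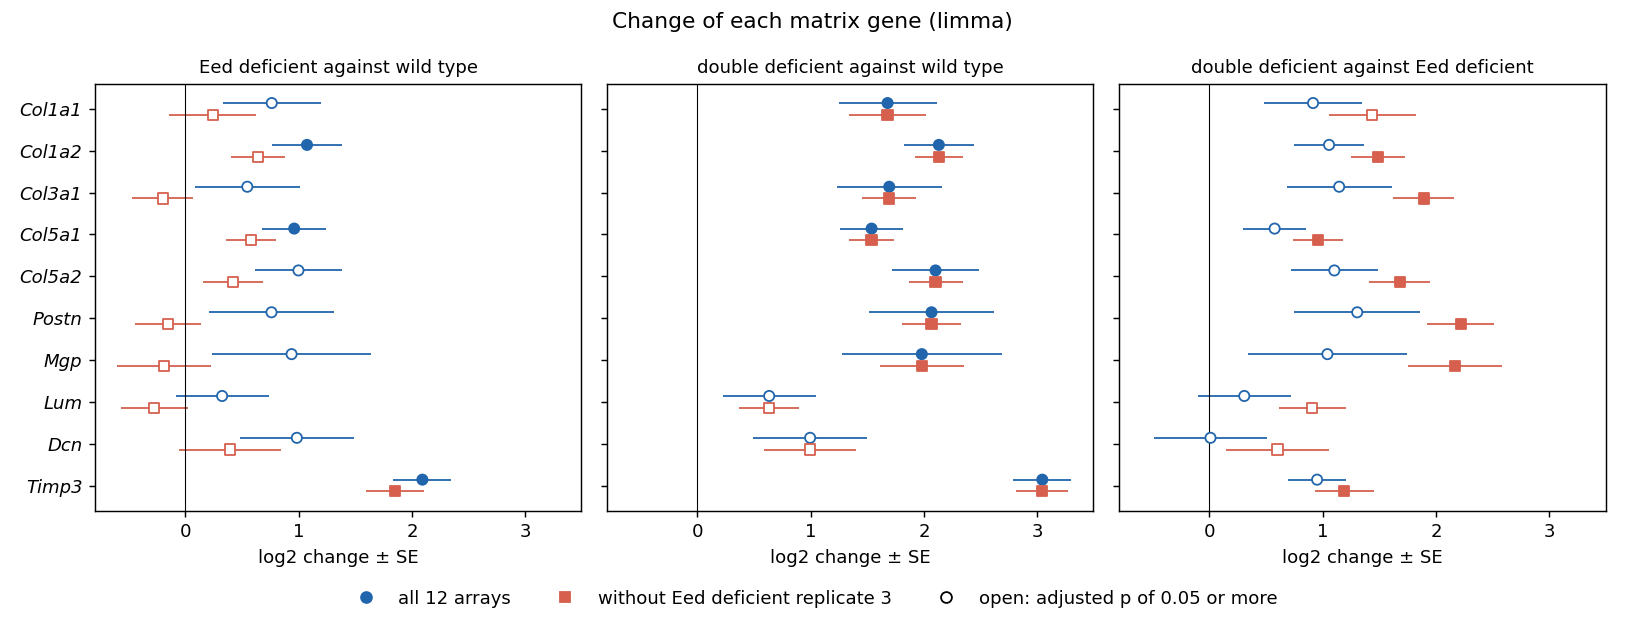
Log2 change with its standard error (horizontal axis) of each gene in 3 comparisons, from all 12 arrays (circles) and without Eed deficient replicate 3 (squares), filled where the limma adjusted p was under 0.05. Leaving out that array moved Mgp from 0.94 to -0.18 in Eed deficient cells against wild type. It left every log2 change of double deficient cells against wild type in place but narrowed their standard errors.

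Each array was also set against the mean of the other 2 arrays of its genotype. Eed deficient replicate 3 was the highest of its group for 10 of 10 matrix genes, by 0.72 (Timp3) to 3.37 (Mgp) in log2 with a median of 1.75, and 9 of 10 exceeded 1, where 1.3% of all genes did. That array was set apart because its matrix signals were already known to be high, so these counts describe it and test nothing. For all genes the median difference was 0.01, on arrays that MAS5 had already brought to a common level, and the array's median signal was 22.83 against 21.47 and 21.51 on replicates 1 and 2. It was the highest of its group for 27.8% of all genes. On the other 11 arrays the median of the matrix genes lay between -1.07 and 0.39, and the lower end, -0.84 and -1.07 for Eed deficient replicates 1 and 2, is the same gap read from the other side. Ring1B deficient replicate 3 was the lowest outside the Eed deficient group, with a median of -0.59 and Col1a1 at -1.52. On wild type replicate 3, Mgp (1.51) and Dcn (1.15) exceeded 1 and the other 8 genes did not, with a median of 0.13, where 0.894% of all genes exceeded 1. On the remaining 10 arrays 0 of the matrix genes exceeded 1. Among the double deficient arrays replicate 2 was the highest for 8 of 10 genes, against 36.2% of all genes, with a median of 0.34.

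**Figure D3:**
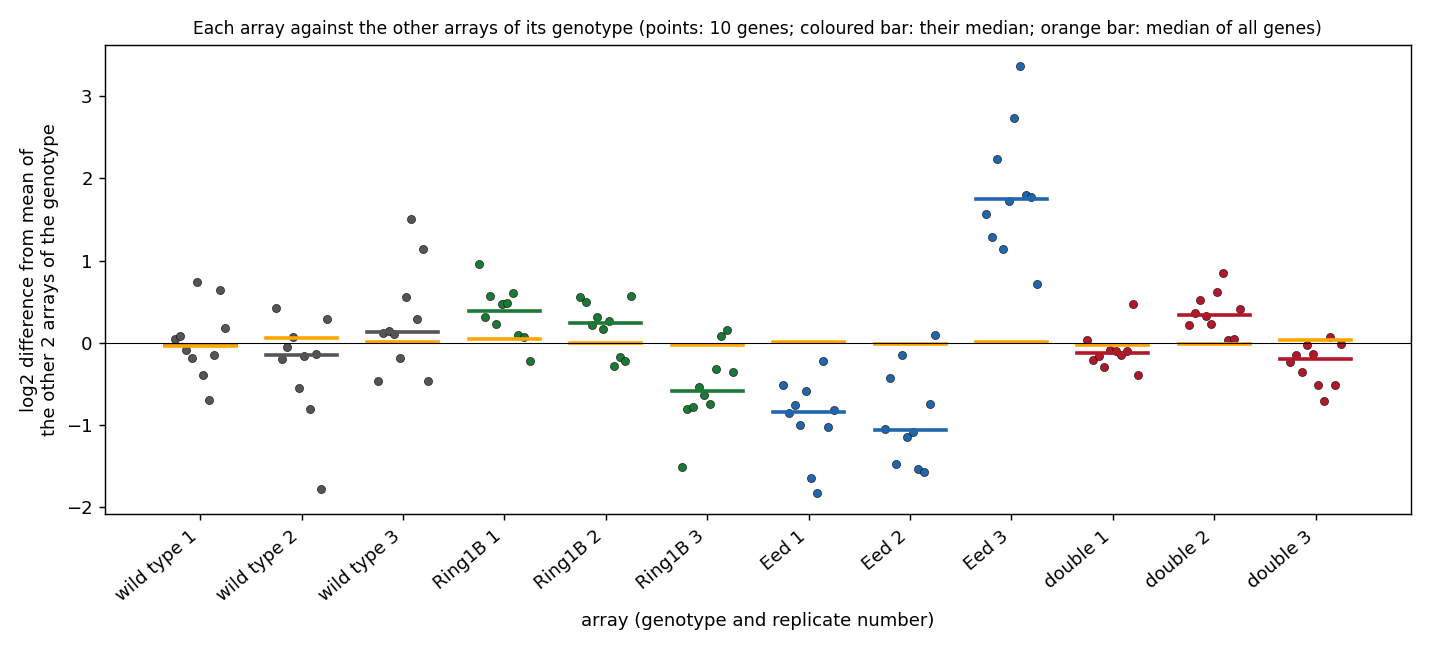
Log2 difference of each array from the mean of the other arrays of its genotype (vertical axis) for the 10 genes, with their median and, in orange, the median of all genes tested. Eed deficient replicate 3 has a median of 1.75 with all 10 genes above 0, and the median of all genes stays near 0 on every array.

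Over the 12 arrays the genes kept close company. Pearson correlations between pairs of the 10 genes, 45 pairs in all, ran from 0.53 (Lum and Timp3) to 0.98 (Col1a2 and Col5a1) with a median of 0.89. With the genotype means removed they ran from 0.16 (Dcn and Timp3) to 0.96 (Postn and Mgp) with a median of 0.77, a figure to which Eed deficient replicate 3 contributes in every pair. Against the mean standardized profile of the 10 genes, Postn (r = 0.98) and Col3a1 (0.98) lay nearest and Dcn (0.79) farthest. These are descriptions over 12 arrays that share their genotypes.

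The remaining probe sets of the same genes were read next. Of 21 probe sets, 19 passed the filter, 13 of them above the 40th percentile on all 12 arrays and 4 of them on no wild type array. The other 2 (the weakest Col1a2 and Dcn probe sets, at most 11.55 and 12.6) were not tested. Of the 19, 7 were called higher in Eed deficient cells, where 7.49% of all probe sets were, and all 7 belonged to Timp3, Col5a1 and Col1a2. Of the 13 above the 40th percentile on all 12 arrays, 6 were called there. A second Col1a2 probe set (limma adjusted p = 0.0991) and the Timp3 probe set with the smallest rise (0.131) were not called. The dimmest Col5a1 probe set averaged 3.52 ± 0.29 in wild type, 28.9 ± 18.95 with Eed lost and 56.1 ± 6.67 with both lost (SD, n = 3). It was above the 40th percentile on only 6 arrays, the Eed deficient and double deficient ones, so its calls do not stand as support. The 4 Timp3 probe sets rose by 3.04, 3.32, 1.65 and 2.43 in log2 in double deficient cells. In that comparison 16 of 19 probe sets were called higher, where 15.2% of all were. Some of these passed the filter through the mutant arrays where they were high, so the 16 do not stand as support; of the 13 probe sets above the 40th percentile on all 12 arrays, 12 were called. Among the 19, the exceptions were the single kept probe sets of Mgp (adjusted p = 0.0518 over all probe sets), Lum and Dcn. Against Ring1B deficient cells 17 of 19 were called higher, where 9.48% of all probe sets were. The same limit holds for the 17, and of the 13 probe sets above the 40th percentile on all 12 arrays 13 were called.

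For the gene lists that follow, 19.5% of all genes were called higher and 11.4% lower in double deficient cells against wild type. These shares were 10.8% and 4.56% in Eed deficient and 4.68% and 2.5% in Ring1B deficient cells. Without Eed deficient replicate 3, 7.27% were called higher in Eed deficient cells. Counts near these shares are no result about a list. Genes that process and cross-link collagen were taken from a list of which 14 were found and tested. In double deficient cells 12 were called higher and 0 lower than wild type (median 0.96), in Eed deficient cells 5 and 0 (also 5 and 0 without replicate 3), and in Ring1B deficient cells 3 and 0. Serpinh1, the collagen chaperone, read 266, 583 and 292 in wild type, 818, 1488 and 1051 in Ring1B deficient, 1469, 1944 and 1515 in Eed deficient and 2253, 2985 and 2237 in double deficient cells. It rose by 2.18 with Eed lost and by 2.77 with both lost, and Bmp1, which trims procollagen, rose by 2.16 and 2.90. Bmp1 read only 4.10, 13.8 and 6.08 in wild type, so its rises do not stand as support. On Eed deficient replicate 3 this list did not follow the matrix genes, since its median difference from the other Eed deficient arrays was -0.05 and 6 of 14 genes were higher there. Lox, which cross-links collagen, was an exception at 1.17, and Lox rose by 1.64 in double deficient cells (adjusted p = 0.000516).

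Other fibril-associated matrix genes were closer to the 10. Of 23 tested, 15 were called higher and 0 lower in double deficient cells (median 1.17), 4 and 0 in Eed deficient cells, and 1 and 1 in Ring1B deficient cells. Without Eed deficient replicate 3 the count in Eed deficient cells was 2 of 23, and the list's median change there was 0.04 in place of 0.48. Tnc, which encodes tenascin C, read 134, 121 and 178 in wild type, 189, 152 and 674 in Eed deficient and 600, 630 and 555 in double deficient cells, and rose by 2.03 in the latter. On Eed deficient replicate 3 the list's median difference was 1.19, with 21 of 23 genes higher. Sparc, a collagen-binding protein also made by endoderm, behaved otherwise, with a rise of 1.98 in Eed deficient cells and a replicate 3 difference of 0.18.

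Of 10 matrix receptors tested, 7 were called higher in double deficient cells, 3 in Eed deficient and 0 in Ring1B deficient cells, where 1 was lower. Cd44, the hyaluronan receptor, rose by 2.92 in double deficient cells, and Ddr2, a receptor for fibrillar collagen, by 1.27. Without replicate 3 the receptors had 2 higher in Eed deficient cells. Of 12 metalloproteinases and inhibitors, 5 were called higher and 1 lower in double deficient cells, 3 higher in Eed deficient and 0 in Ring1B deficient cells. Without replicate 3 the Eed deficient count was 2. Timp2 rose by 2.16 and Mmp14 by 1.35 in double deficient cells. Of 13 TGF-beta ligands, receptors and targets, a pathway that drives matrix genes in fibroblasts, 12 were called higher and 1 lower in double deficient cells, 6 and 1 in Eed deficient and 1 and 0 in Ring1B deficient cells. Without replicate 3 the Eed deficient counts were 4 and 0. Ccn2, a TGF-beta target, rose by 1.47 in double deficient cells and Tgfbr2, the type II receptor, by 1.98. Tgfbr2 was also called higher in double deficient than in Eed deficient cells (1.16, adjusted p = 0.0327).

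Markers of fibroblasts outside the matrix moved on the same arrays. Of 18 tested, 15 were called higher in double deficient cells, 9 in Eed deficient and 2 in Ring1B deficient cells, and 0 lower in each. The 18 include Cd248, at 7.44 to 8.10 on the wild type arrays, and Twist2, at 13.9, 4.99 and 4.96. Both passed the filter mainly through arrays where they were high, so their calls do not stand as support. Without Eed deficient replicate 3 the Eed deficient count was 7. The summed signal of the 18 ran from 3732 to 5014 on the wild type arrays and from 4235 to 4514 on the Ring1B deficient arrays. It was 5825 and 7204 on Eed deficient replicates 1 and 2 and 12300 on replicate 3, and ran from 11400 to 11440 on the double deficient arrays. On every array most of this sum was Vim, Anxa1, S100a6 and Lgals1. These were already bright in wild type cells, at 1265, 394, 655 and 1199 on replicate 1. On replicate 3, 17 of 18 were higher than the mean of the other Eed deficient arrays, with a median difference of 0.90 and 7 of 18 above 1. Cdh11 (2.78), Prrx1 (2.15) and Twist2 (2.35) were among those with the widest gaps, whereas Nt5e had 0.47. Prrx1, Twist2, Cd248, Vim, Anxa1, S100a6 and Lgals1 were named after their values were seen. Cdh11, a mesenchymal cadherin, read 56.2, 16.75 and 245.5 on the Eed deficient arrays and 231, 171.5 and 202 on the double deficient arrays. Prrx1, a transcription factor of limb and facial mesenchyme, read 25.15, 10.1 and 89.55 on the Eed deficient arrays and 73.85, 77.8 and 59.5 on the double deficient arrays. Twist2, a factor of dermal fibroblasts, read 8.37, 5.19 and 54.7 and then 47.6, 28.4 and 42.9. Pdgfra, a growth factor receptor of mesenchyme and of primitive endoderm, had another pattern, with rises of 2.41 in Ring1B deficient and 2.45 in Eed deficient cells and a replicate 3 difference of 0.27. Meox1 and Meox2 did not pass the filter and stayed at or under 7.90.

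Other cell types' markers were read in the same way. The summed signal of 7 macrophage markers ran from 164 to 302 in wild type and from 206 to 247 in Ring1B deficient cells. It was 207, 337 and 1215 on Eed deficient replicates 1, 2 and 3 and 748 to 1118 on the double deficient arrays. On Eed deficient replicate 3 and the double deficient arrays most of this was Lyz1 and Lyz2, which encode lysozymes. On Eed deficient replicates 1 and 2 it was not. Lyz1 and Lyz2 read 630.5 and 357 on Eed deficient replicate 3 against at most 41.65 and 38.3 on the other Eed deficient arrays. Wild type replicate 3, the array with the higher Mgp, had 85.8 and 86.45 against at most 31.7 and 31.0 on the other wild type arrays. The macrophage genes Ptprc, Mpeg1 and Tyrobp did not pass the filter and stayed at or under 15.2, 18.45 and 22.75 on every array. Of the 7 macrophage markers tested, 5 were called higher in double deficient, 3 in Eed deficient (2 without replicate 3) and 1 in Ring1B deficient cells. Of 9 smooth muscle and myofibroblast markers 8 were called higher in double deficient cells, with Acta2 at 1782 to 2042 against 517 to 813 in wild type. Of 5 cartilage and bone markers 0 were called by limma in double deficient cells, and of 7 endothelial markers 2 were higher and 1 lower. The part of other cells in the matrix gene results was not tested.

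Of 10 visceral endoderm markers, 7 were called higher in double deficient, 8 in Eed deficient (9 without replicate 3) and 5 in Ring1B deficient cells, but they were not high on replicate 3. Their summed signal was 1930, 4381 and 1028 on Eed deficient replicates 1, 2 and 3, and 1 of 10 was higher on replicate 3 than the mean of the others. For 10 basement membrane genes, which include collagen IV, the sums were 6745, 6891 and 6052, with 3 of 10 higher. Basement membrane genes had 6 of 10 called higher in Ring1B deficient cells, where 0 of 10 interstitial matrix genes were. ES cell markers summed to 21120 to 22170 in wild type and to 14890 to 17030 in double deficient cells, with 7 of 10 called lower there. On Eed deficient replicate 3 that sum was 18840, between the 20510 and 17130 of replicates 1 and 2.

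**Figure D4:**
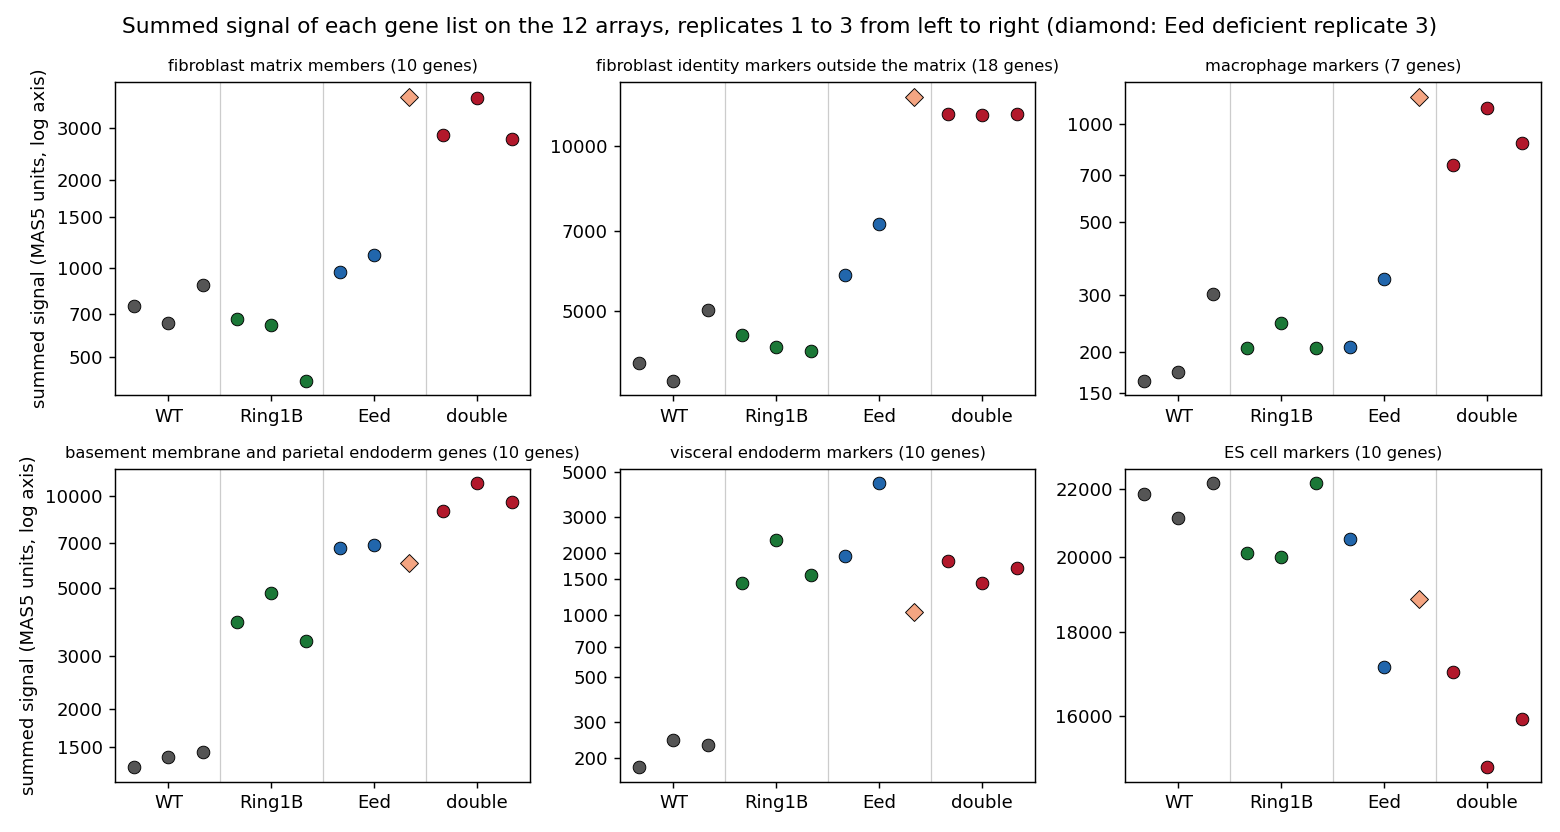
Summed signal of 6 gene lists (vertical axis, MAS5 units, log scale) on each of the 12 arrays, coloured by genotype with a diamond for Eed deficient replicate 3. The matrix genes, fibroblast identity markers and macrophage markers are high on that array and on the double deficient arrays, while the visceral endoderm markers are at 1028 on that array, the lowest of the Eed deficient arrays. Most of the fibroblast identity sum is Vim, Anxa1, S100a6 and Lgals1.

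Among non-members brighter than the median gene, those whose 12 values followed the mean profile of the matrix genes most closely were Tnc (r = 0.99), Igfbp7 (0.98), Lox (0.97), Cav1, Bgn, Serpinf1, S100a4 and Timp1 (0.96 each). Igfbp7, a secreted protein that binds growth factors, read 166, 204.5 and 706 on the Eed deficient arrays. Among the same brighter genes, those that exceeded the other Eed deficient arrays most on replicate 3 were Meg3 (2.54), Inhba (2.06), Serpinf1 (2.01), Tnc (1.96), Igfbp7 (1.91), S100a4 (1.74), Cd44 (1.59) and Bgn (1.42). Meg3, an imprinted noncoding RNA, read 39.9, 35.7 and 244 on the Eed deficient arrays, with means of 944 in wild type and 132 in double deficient cells, so in wild type it did not share the matrix pattern. Dimmer listed genes had wider gaps, such as Lyz1 (4.21), Lyz2 (3.32) and Cdh11 (2.78).

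Col3a1 and Col5a2 are neighbouring genes, and so are Lum and Dcn, by the order of protein-coding genes in the RefSeq table of GRCm38.p6. Both genes of each pair were higher on Eed deficient replicate 3, by 2.24 and 1.73 for Col3a1 and Col5a2, and by 1.7962 and 1.774 for Lum and Dcn. This was not particular to the pairs, since all 10 matrix genes were higher on that array and 9 of 10 exceeded 1. The nearest protein-coding genes that are not members were 16, of which 10 were tested. Of these, 2 (Gulp1 and Casd1) were called higher in double deficient cells and 1 (Supt20) lower, 0 were called higher and 1 (Gm11544, -1.36, adjusted p = 0.0448) lower in Eed deficient cells by limma, and 0 exceeded the other Eed deficient arrays by 1 on replicate 3. Syn3, whose gene spans Timp3, was not called in double deficient cells (0.39, adjusted p = 0.381), where Timp3 itself rose by 3.04.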

How the data were processed

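The deposited values are intensity values, MAS5 signals on a linear scale, produced for the authors by a commercial provider with MAS5 (named in the submitters' processing notes), whose version the sources used here do not give. The table held 45101 probe sets, of which 64 array controls were left out. Of the rest, 34945 carried 1 gene symbol in the platform annotation, and only these named genes. The filter asked for signals over the 40th percentile of the array on 3 or more of the 12 arrays, which left 30027 probe sets, and each of 13984 genes was read from its brightest one by mean log2 value. A limma 3.58.1 model in R 4.3.3 with 1 mean per genotype and an intensity trend was fitted to log2(signal + 5). P-values were adjusted by the Benjamini-Hochberg method over all genes, or over all kept probe sets where probe sets are counted, with calls made below 0.05. The fit was tested on simulated data. Precision is limited by how few arrays there are. The 10 genes, the other gene lists, the setting apart of Eed deficient replicate 3 and the alternatives were chosen with earlier results of these data known. Genes outside the 10 were named from the 4 per list with the largest change in double deficient cells and, among genes brighter than the median gene, the 8 most like the mean profile and the 8 with the largest gap on Eed deficient replicate 3. Neighbouring genes, the targeted genes and Pou5f1 were fixed by name. Twist2, Prrx1, Cd248, Vim, Anxa1, S100a6, Lgals1, Meox1, Meox2, Ptprc, Mpeg1 and Tyrobp were named after their values were seen. Start site sequences are from RefSeq, GRCm38.p6.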

Additional observations from a re-analysis of the deposited data

How the results depend on the processing

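The settings tried were array median centring or quantile normalization, 1 or 20 added before log2, no filter, a filter at the 60th percentile, the mean of a gene's probe sets, no intensity trend, array weights, the replicate number as a block, and each of the 12 arrays left out, with 1 more (wild type replicate 3 and Eed deficient replicate 3 both left out) chosen after seeing the data. No called change of a matrix gene turned its sign in any of them. The count of matrix genes called in Ring1B deficient cells was 0, that in double deficient cells against wild type lay within 1.5 times 8, and likewise against Ring1B deficient cells, in all of these settings. In Eed deficient cells the count of 3 became 5 with array weights and 1 with both replicate 3 arrays left out, and ran from 1 to 3 with 1 array left out; it was 4 with the replicate block. For double deficient against Eed deficient cells the count of 0 became 2 with the replicate block (Col1a2 and Timp3) and 6 with both arrays left out, and ran from 0 to 7 with 1 array left out. For the interaction the count of 0 became 1 with the replicate block (Col1a2) and 5 with both arrays left out, and ran from 0 to 5 with 1 array left out. Under that block Col5a2 was also called in Eed deficient cells (1.00, adjusted p = 0.0436). The arrays were not treated as paired, because the rule asks for a correlation of deviations above 0.1 in every same-numbered pair and 13 of 18 had it. All 6 pairs of replicates 1 (0.16 to 0.43) and all 6 of replicates 2 (0.27 to 0.61) did, and 1 of 6 pairs of replicates 3 did (-0.05 to 0.18). Of 12 arrays, 9 correlated best with their own number, a hint from the data and not the design. Median centring moved the median log2 change of all genes in double deficient cells against wild type from 0.10 to -0.15 and that of the matrix genes from 1.84 to 1.59. Signals of Lum, Dcn and the dimmest probe sets lay near the background, which limits their changes.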
